A study of Mus musculus with 4 samples.

Results

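The insulin-like growth factor (IGF) genes examined here are 2 ligands, *Igf1* and *Igf2*, 2 receptors, *Igf1r* and *Igf2r*, and 6 binding proteins, *Igfbp2* to *Igfbp7*, 10 of the 23946 gene symbols listed in each library. They were taken by name, and all 10 were found. RNA was measured by bulk RNA-seq in wild-type CD-1 mice, an outbred stock, at postnatal day 3. CD51+;CD200+ cells, a skeletal stem/progenitor population sorted by FACS, came from 3 cranial sutures, the posterior frontal (PF), the sagittal (SAG), and the coronal (COR), and from the growth plate of the tibia (GP), the reference tissue, with 1 library each and no treatment. The sort also removed cells positive for CD45, Ter119, Tie2, Thy1, 6C3, or CD105. The study's methods give 1 group of mice for all 4 tissues, so cells of several animals were pooled, and the dissected sutures included bone edges, dura mater, and periosteum. The PF suture is the one that fuses in early life, while SAG and COR stay patent, and all were still patent at this age.

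IGF ligands act through Igf1r, a receptor tyrosine kinase, while Igf2r carries Igf2 to the lysosome and also sorts proteins tagged with mannose 6-phosphate. The binding proteins hold the ligands outside the cell, where proteases release them, and can block or prolong their action. In bone, IGFs are made by skeletal cells themselves, are stored in the matrix, and promote growth plate and osteoblast growth.

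Values are FPKM, the number of fragments scaled to transcript length and library size, so levels can be set side by side between genes. No library has a replicate, so no difference below carries an error or a test, and what is due to the tissue and what to its library cannot be told apart. A rough reading of the spacing of low values put the PF library at 43.9% of the fragments of SAG, with COR and GP at 82.9% and 84.1%. By the same reading, the lowest IGF gene of each library still rested on 51.8 to 105.4 fragments per kilobase of transcript. *Itgav* and *Cd200*, the genes of CD51 and CD200, lay between 6.203 and 15.0 FPKM and between 23.5 and 62.6 FPKM, and *Ptprc*, the leukocyte gene of CD45, was at most 0.568 FPKM. Of the other antigens sorted against, *Tek* and *Thy1* were under 1 FPKM, while *Enpep*, the gene of 6C3, lay between 1.39 and 7.05 FPKM and *Eng*, the gene of CD105, between 0.679 and 1.70, both highest in PF. The highly expressed collagen gene *Col1a1* is listed at 0 in COR, so a value in these libraries can be a failed estimate, but no IGF gene examined here was at 0 in any library.

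The IGF genes fell into 3 ranges of level. *Igf2*, *Igfbp4*, and *Igfbp7* were above 300 FPKM in every library, *Igf1* and the other binding proteins lay between 20 and 1828 FPKM, and both receptors stayed under 11 FPKM. The highest library exceeded the lowest by at least 3-fold for 6 of the 10 genes, all of them binding proteins, on the log2(FPKM + 1) scale. Of the 13998 genes that reached 1 FPKM anywhere, 24.7% spanned as much. Neither ligand and neither receptor did. The median range was 1.80 log2 units over the IGF genes and 1.01 over all genes. Highest values were found in PF for 5 genes, in GP for 4, in COR for 1, and in SAG for 0. Over all genes the shares with the highest value were 35.2% in PF, 16.4% in GP, 19.9% in COR, and 28.4% in SAG. SAG held the lowest value of 5 genes, while over all genes SAG was lowest for 27.4%.

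**Figure D1:**
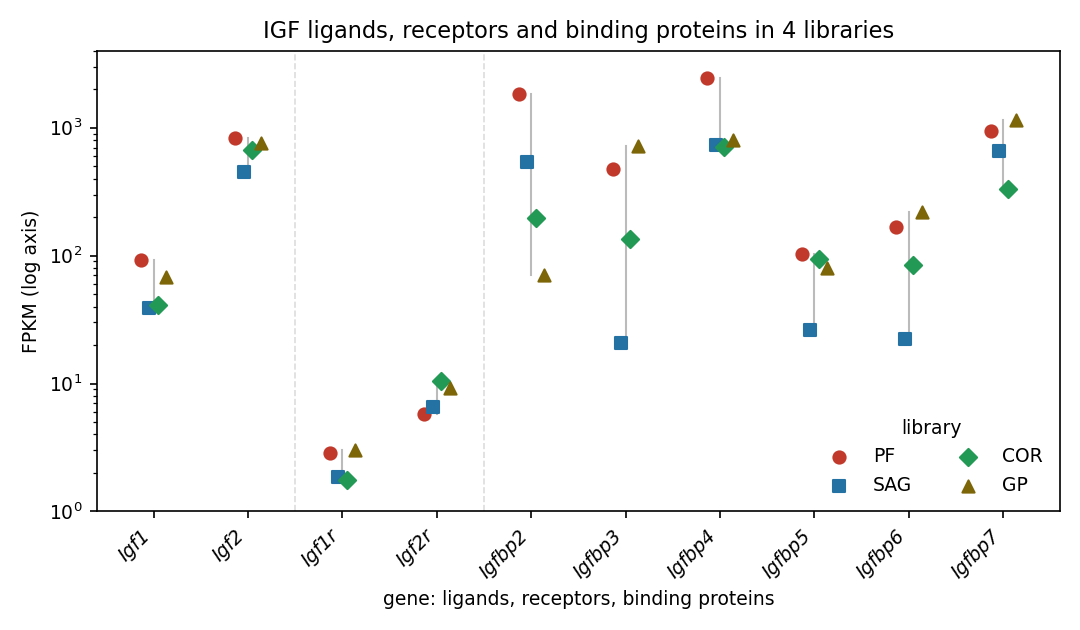
FPKM (log axis) of the 10 IGF genes, with 1 point per library (PF, SAG, COR, GP) and a grey line from the lowest to the highest value of each gene; there are no error bars because each tissue has 1 library. *Igfbp2* and *Igfbp3* have the widest spread, from 70.2 to 1828 FPKM and from 20.8 to 724 FPKM, and the receptors lie at the bottom with a spread under 2-fold.

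Of the ligands, *Igf2* was the more abundant throughout. *Igf2* (ENSMUSG00000048583.9, mm9 chromosome 7, 149836673 to 149852721, minus strand), the fetal growth factor expressed from the paternal allele, was highest in PF, at 833 FPKM, followed by GP at 763, COR at 671, and SAG at 453. PF was highest and SAG lowest, 1.84-fold apart, and PF exceeded GP by 1.09-fold, an order that turned after correction for GC content (log2 ratio of GP to PF from -0.13 to 0.20). *Igf2* ranked between place 62 and place 117 of all genes in the 4 libraries. In these bulk samples, fewer cells of one type and less RNA per cell cannot be told apart. *Igf1* (ENSMUSG00000020053.11, chromosome 10, 87321010 to 87399792, plus strand), the postnatal growth factor that growth hormone induces, was at 93.0 FPKM in PF and 68.1 in GP, ahead of 41.0 in COR and 39.1 in SAG. SAG and COR lay within 1.05-fold of each other, and PF was 2.38-fold above SAG. *Igf2* exceeded *Igf1* by 16.4-fold in COR, 11.6-fold in SAG, 11.2-fold in GP, and 8.96-fold in PF. The share of the ligand RNA that was *Igf1* was thus greatest in PF and smallest in COR.

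The receptors varied least. *Igf1r* (ENSMUSG00000005533.8, chromosome 7, 75097713 to 75371484, plus strand) was lowest in COR, at 1.75 FPKM, and reached 1.84 in SAG, 2.86 in PF, and 3.05 in GP. GP and PF formed the upper pair and SAG and COR the lower pair, with a ratio of 1.06 and 1.05 within the pairs, and the order within each pair turned relative to *Gapdh*. *Igf2r* (ENSMUSG00000023830.7, chromosome 17, 12875272 to 12962530, minus strand) reached 10.4 FPKM in COR and 9.24 in GP, with 6.57 in SAG and 5.74 in PF. *Igf2r* was the only one of the 10 genes with its lowest value in PF and its highest in COR. The ratio of *Igf2r* to *Igf1r* was 5.92 in COR, 3.57 in SAG, 3.03 in GP, and 2.004 in PF. *Insr*, the insulin receptor, which can pair with Igf1r, was highest in PF, at 4.59 FPKM, followed by COR at 3.17, GP at 2.69, and SAG at 2.45. PF thus held the highest *Insr* value and COR the highest *Igf2r* value among the receptor genes.

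*Igf2r* overlaps *Airn*, a noncoding RNA of the opposite strand that silences the paternal *Igf2r* allele, over 28354 bases in the mm9 annotation. *Airn* stood at 32.6 FPKM in SAG and at 25.9 in GP, ahead of 17.5 in PF and 16.5 in COR, above *Igf2r* in every library. Use of strand in the library kit and the counting is not given in the sources used here, so reads in the shared stretch cannot be assigned and both values are uncertain. *Mir483* lies within *Igf2* and is listed at 0 throughout, and *Igf2os*, the antisense RNA of *Igf2*, stayed under 0.45 FPKM.

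*Igfbp2* and *Igfbp3* were the genes with the widest range, and their patterns lay farthest apart of all pairs of the 10 genes (Euclidean distance 5.76 log2 units over the 4 libraries). For this reason the 300 bases around their RefSeq starts are shown, mostly upstream, from the RefSeq promoter table of build GRCm38.p6, which differs from the mm9 build of the expression data. All 10 genes had a window there, 14 windows in all. *Igfbp2* has 2 starts in the table, of which the upstream one is printed. Capitals mark the GC box GGGCGG, the TATA box TATAAA, or CCAAT, searched on both strands, with no overlap among the matches.
Igfbp2, chr1:72824230-72824529, plus strand: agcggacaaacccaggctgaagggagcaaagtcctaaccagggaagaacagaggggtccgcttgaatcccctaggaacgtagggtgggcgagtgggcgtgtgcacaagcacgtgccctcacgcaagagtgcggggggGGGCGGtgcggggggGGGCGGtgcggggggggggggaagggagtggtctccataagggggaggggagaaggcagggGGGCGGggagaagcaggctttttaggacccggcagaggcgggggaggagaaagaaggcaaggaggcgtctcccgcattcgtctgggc
Igfbp3, chr11:7213874-7214173, minus strand: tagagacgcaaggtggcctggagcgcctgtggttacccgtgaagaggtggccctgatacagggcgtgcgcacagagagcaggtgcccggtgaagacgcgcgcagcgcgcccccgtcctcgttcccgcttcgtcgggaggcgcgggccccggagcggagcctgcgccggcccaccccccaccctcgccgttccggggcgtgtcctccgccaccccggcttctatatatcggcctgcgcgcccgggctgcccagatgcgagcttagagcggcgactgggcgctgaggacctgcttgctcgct
The printed *Igfbp2* window holds 3 GC boxes, 18 CpG dinucleotides, and 67.0% G and C, and the *Igfbp3* window holds 0 of the 3 motifs, 37 CpG dinucleotides, and 71.7% G and C. The *Igfbp2* window not printed holds 0 of the 3 motifs, 14 CpG dinucleotides, and 57.3% G and C, so the contrast in GC boxes depends on the start taken. Among 32851 windows of this length, 35.7% hold a GC box, 13.6% a TATAAA, and 37.4% a CCAAT, and the median G and C content is 52.7%. These are descriptions of the letters, and factor binding was not measured.

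*Igfbp2* (ENSMUSG00000039323.11, chromosome 1, 72871077 to 72899048, plus strand) encodes a binding protein with an integrin-binding RGD motif. It was lowest in GP, at 70.2 FPKM, and reached 198 in COR, 542 in SAG, and 1828 in PF. Each library was at least 2.73-fold above the next, and PF exceeded GP by 26.1-fold. All 3 sutures were thus above the growth plate, with the fusing suture highest. Every ratio between 2 libraries kept its direction in all 7 other settings tried, which were pseudocounts, scalings, and a correction for GC content. *Igfbp2* ranked at place 24 in PF and at place 1387 in GP.

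*Igfbp3* (ENSMUSG00000020427.5, chromosome 11, 7106089 to 7113926, minus strand), the main carrier of IGFs in serum, reached 724 FPKM in GP and 476 in PF, with 134 in COR and 20.8 in SAG. GP was highest and SAG lowest, 34.7-fold apart. COR exceeded SAG by 6.45-fold, and PF exceeded COR by 3.54-fold. SAG thus stood apart from the 2 other sutures as well as from GP, at place 3873 of its library against place 175 in PF. *Igfbp1* lies 3539 bases from *Igfbp3* on the opposite strand, and reached 0.766 FPKM in PF but is listed at 0 elsewhere.

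*Igfbp6* (ENSMUSG00000023046.6, chromosome 15, 101974793 to 101979942, plus strand), which prefers Igf2 as its ligand, was highest in GP, at 220 FPKM, followed by PF at 168.0, COR at 83.8, and SAG at 22.5. The order, GP above PF above COR above SAG, was that of *Igfbp3*, with a smaller range of 9.78-fold, and the order of GP and PF turned relative to *Gapdh*. *Igfbp5* (ENSMUSG00000026185.8, chromosome 1, 72904506 to 72921458, minus strand), a binding protein that attaches to bone mineral and matrix, was at 102.3 FPKM in PF and 94.8 in COR, ahead of 80.02 in GP and 26.2 in SAG. PF, COR, and GP lay within 1.28-fold of each other, while SAG was 3.06-fold below the next. *Igfbp5* and *Igfbp2* are neighbours, 5457 bases apart and transcribed toward each other, and the 2 differed in pattern: *Igfbp2* had its lowest value in GP and *Igfbp5* in SAG.

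*Igfbp4* (ENSMUSG00000017493.5, chromosome 11, 98902558 to 98913969, plus strand), which the protease Pappa cleaves, was the most abundant IGF gene in PF, SAG, and COR. It was lowest in COR, at 708 FPKM, and reached 728 in SAG, 796 in GP, and 2464 in PF. PF stood 3.10-fold above the next library, and the other 3 lay within 1.13-fold of each other, in an order that turned with the scaling. *Igfbp4* ranked at place 12 of all genes in PF. *Igfbp7* (ENSMUSG00000036256.6, chromosome 5, 77778265 to 77837070, minus strand), a secreted protein of low affinity for IGFs, reached 1157 FPKM in GP and 949 in PF, with 653 in SAG and 329 in COR. COR was lowest here, 1.98-fold below SAG and 3.51-fold below GP, and GP fell below PF only relative to *Gapdh*. *Igfbp7* was the most abundant IGF gene in GP.

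Summed over the 6 binding proteins, the level was 5988 FPKM in PF, 3047 in GP, 1992 in SAG, and 1548 in COR. These sums were 1.09%, 0.591%, 0.445%, and 0.316% of the total FPKM of the library. The makeup also differed. *Igfbp4* made up 45.7% of the sum in COR, 41.2% in PF, 36.5% in SAG, and 26.1% in GP. *Igfbp2* made up 30.5% in PF and 27.2% in SAG, compared with 12.8% in COR and 2.30% in GP. *Igfbp3* made up 23.8% in GP and 1.05% in SAG. GP was thus led by *Igfbp7*, *Igfbp4*, and *Igfbp3*, and PF by *Igfbp4* and *Igfbp2*. The sum of the binding proteins exceeded the sum of both ligands by 6.46-fold in PF, 4.04-fold in SAG, 3.66-fold in GP, and 2.17-fold in COR. These sums, shares, and ratios were not recomputed under other scalings or the GC correction. The GC correction lowered the PF vs SAG log2 ratios of *Igfbp2* and *Igfbp4*, from 1.75 and 1.76 to 1.07 and 1.20. These are transcript levels and do not measure secreted or bound protein.

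**Figure D2:**
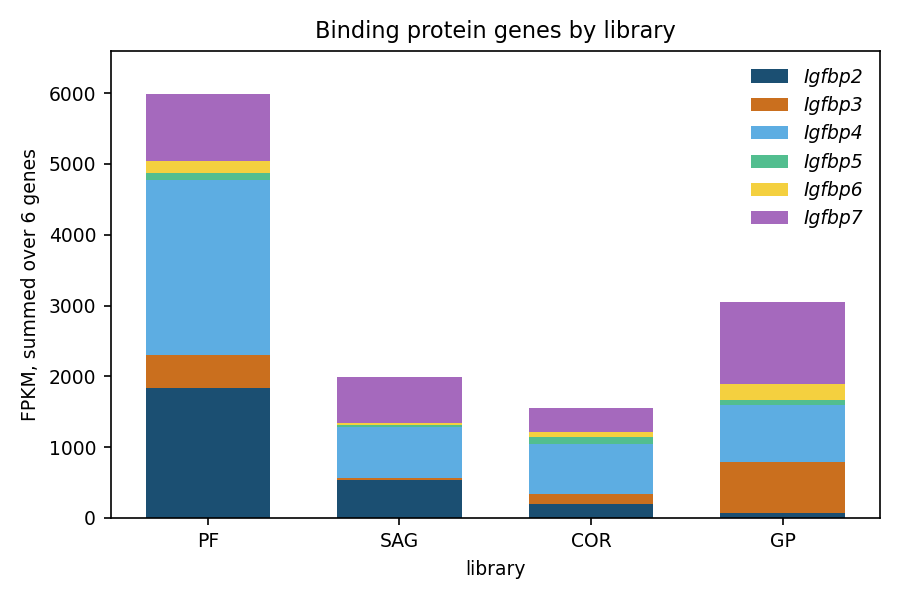
Stacked bars of FPKM of the 6 binding protein genes in each library, with FPKM summed on the vertical axis and 1 bar per library. Values are FPKM as deposited, with no other scaling or GC correction. PF reaches 5988 FPKM, mostly *Igfbp4* and *Igfbp2*, and the *Igfbp2* segment narrows to 70.2 FPKM in GP while the *Igfbp3* segment is 724 FPKM there.

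The fusing and patent sutures were compared by ratio on the log2(FPKM + 1) scale. A gene was counted at 3-fold or more, the size of change the study used. The study also required a significant difference, which was not required here, so the counts are not comparable with those of the study. Between PF and SAG, 5 of the 10 genes passed, *Igfbp2*, *Igfbp3*, *Igfbp4*, *Igfbp5*, and *Igfbp6*, and all were higher in PF. Of 13490 genes, 15.7% passed in either direction and 6.64% were higher in PF. *Igfbp3* had the widest difference, with a log2 ratio of 4.45, followed by *Igfbp6* at 2.85. *Igfbp5*, *Igfbp4*, and *Igfbp2* followed at 1.93, 1.76, and 1.75. *Igf1*, at 1.23, and *Igf2*, at 0.88, were higher in PF without passing. Of the 10 genes 9 were above 0, beside 51.0% of all genes. *Igf2r*, at -0.17, was the exception and turned to 0.29 relative to *Gapdh*. *Igfbp7*, at 0.54, turned to -0.015 after the GC correction. The median ratio was 1.49 over the IGF genes and 0.025 over all genes.

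Between PF and COR, 3 of the 10 passed, *Igfbp2* at 3.20, *Igfbp3* at 1.82, and *Igfbp4* at 1.80, again all higher in PF. Over 12853 genes, 11.7% passed and 6.81% were higher in PF. *Igfbp7* lay just under the threshold of 1.58, at 1.52. *Igf2r* was lower in PF, at -0.76, and *Igfbp5* was close to even, at 0.11, turning to -0.056 with libraries scaled to the same total FPKM. The comparisons of PF with SAG and with COR share the PF library, so they do not support each other.

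Between the patent sutures, *Igfbp3*, *Igfbp6*, and *Igfbp5* were higher in COR than in SAG, with log2 ratios of 2.63, 1.85, and 1.82. After the GC correction *Igfbp6* was at 1.579, just under 3-fold. These 3 of 10 compare with 9.25% of 12720 genes in either direction and 3.11% higher in COR. *Igfbp2* and *Igfbp7* leaned the other way without passing, at -1.45 and -0.99, but *Igfbp2* passed after the GC correction, at -1.76, and with quantile normalization, at -1.73. The ligands differed little, with *Igf2* at 0.56 and *Igf1* at 0.066, which turned negative with 3 of the other scalings.

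GP was compared with each suture. Against PF, 2 of the 10 passed, *Igfbp2* at -4.68 and *Igfbp4* at -1.63, both lower in GP, while 12.0% of 13101 genes passed in either direction and 5.72% were lower in GP. Against SAG, 3 passed, *Igfbp3* at 5.05 and *Igfbp6* at 3.23, higher in GP, and *Igfbp2* at -2.93, lower in GP, with a background of 8.66% of 12929 genes. *Igfbp5*, at 1.58 to 2 decimals, fell just short of 3-fold against SAG, and passed without a pseudocount, at 1.61. Against COR, *Igfbp3* at 2.42 and *Igfbp7* at 1.81 were higher in GP, compared with 4.40% of 12209 genes in either direction and 3.20% higher in GP. *Igfbp2* was below every suture in GP and *Igfbp3* above every suture, although *Igfbp3* exceeded PF by a log2 ratio of only 0.60. The median ratio of the IGF genes was -0.030 against PF, 0.77 against SAG, and 0.37 against COR, where the medians of all genes were -0.027, -0.027, and -0.018.

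**Figure D3:**
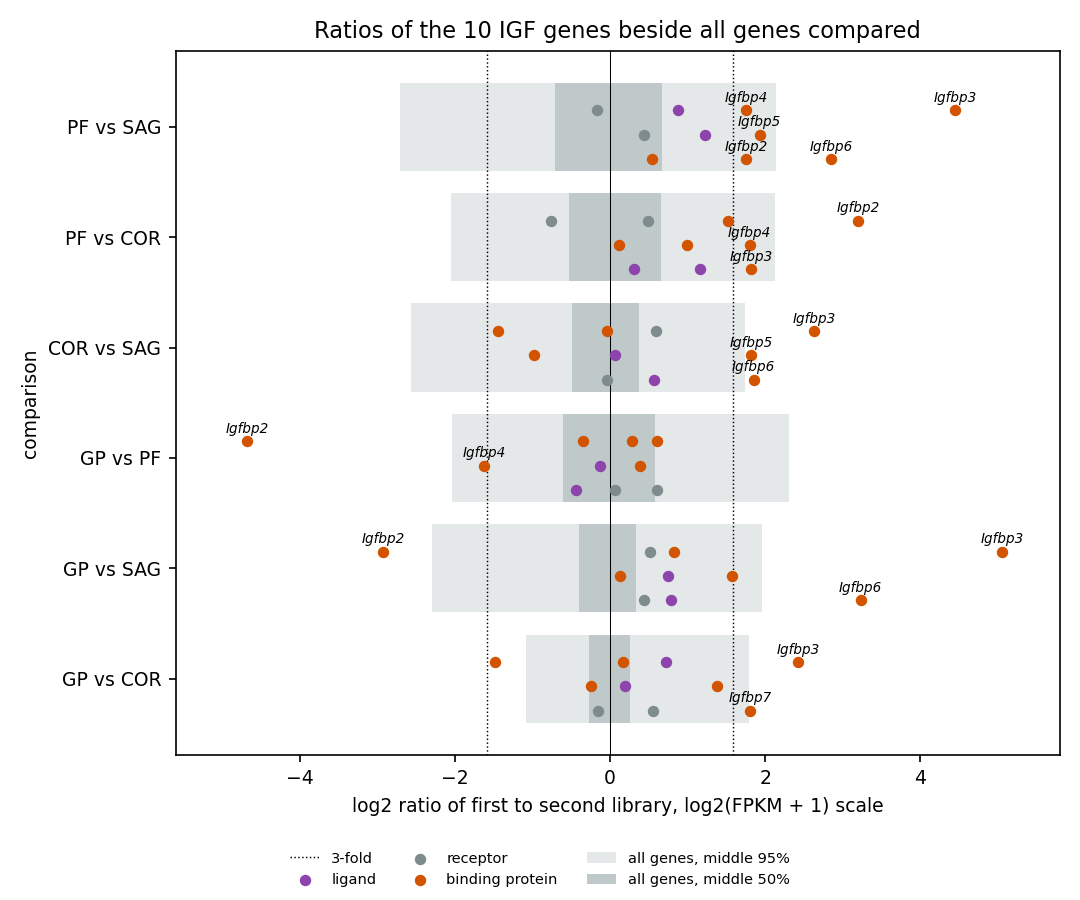
Log2 ratios of the 10 IGF genes (points, coloured by role) in 6 comparisons of libraries, over bars for the middle 95% and middle 50% of all genes compared; dotted lines mark 3-fold, and only points past 3-fold are named. *Igfbp3* lies at 4.45 for PF vs SAG and 5.05 for GP vs SAG and *Igfbp2* at -4.68 for GP vs PF, while ligands and receptors stay inside the dotted lines.

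The genes differ in GC content: the longest coding transcript has 38.1% G and C for *Igf1* and 62.1%, 58.7%, and 60.7% for *Igfbp2*, *Igfbp4*, and *Igfbp6*. After correction of the PF vs SAG ratios for GC content, *Igfbp2* was at 1.07 and *Igfbp4* at 1.20, under 3-fold, and *Igf1* was at 1.69, past it. The PF vs COR ratio of *Igfbp4* became 1.49, and 1.47 with quantile normalization, which left 2 genes past 3-fold in either setting. Over all genes 11.0% and 11.2% passed in these settings. The GP vs PF ratio of *Igfbp4* became -1.20. *Igfbp2* also lost its PF vs SAG call with libraries scaled to the same total FPKM (1.45) and with quantile normalization (1.08), and *Igfbp4* did so in both settings (1.46 and 1.13). The PF vs SAG ratios of *Igfbp3*, *Igfbp5*, and *Igfbp6* stayed past 3-fold in all 7 settings, down to 4.15, 1.63, and 2.21.

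**Figure D4:**
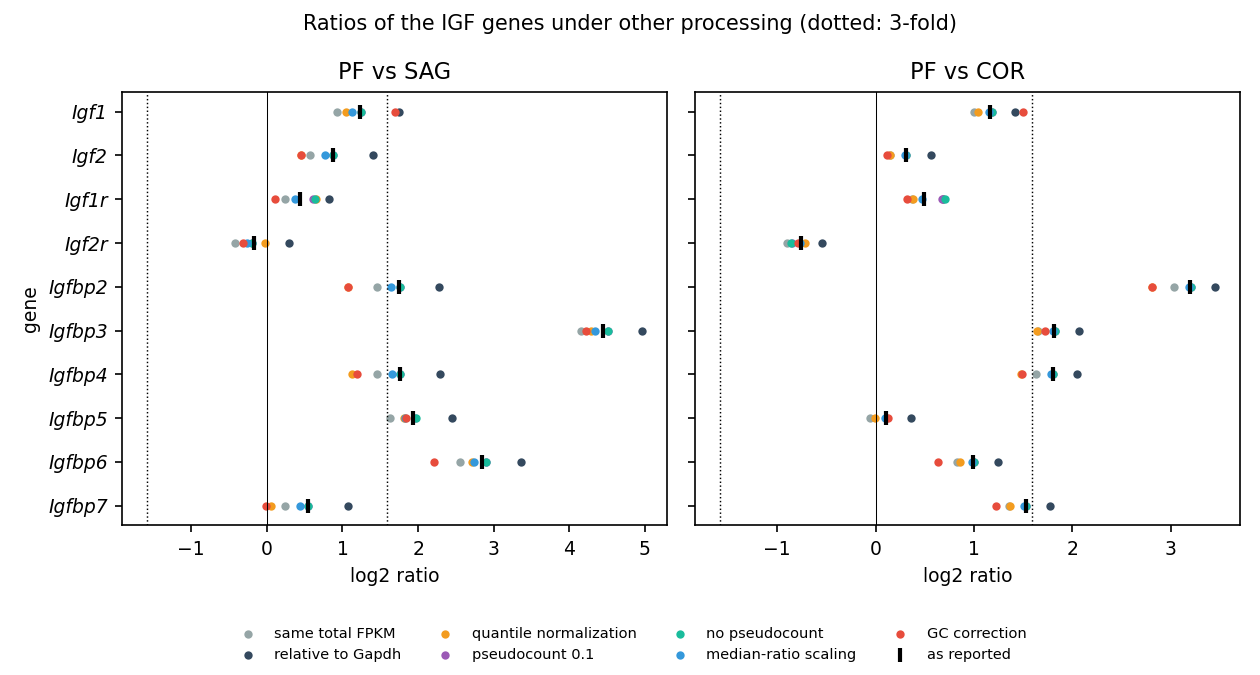
Log2 ratios of each IGF gene for PF against SAG (left) and against COR (right) as reported (black bars) and under 7 other pseudocounts, scalings, and a GC correction (coloured points); dotted lines mark 3-fold. *Igfbp3* stays past 3-fold in both panels (lowest 4.15 and 1.64), while the *Igfbp2* and *Igfbp4* points for PF vs SAG lie on both sides of the line.

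Proteases and inhibitors that act on the binding proteins formed a list of 7 genes, of which 6 reached 1 FPKM and 4 spanned 3-fold among the libraries, beside the 24.7% of all genes. *Htra1*, a secreted serine protease of IGF binding proteins, was highest in PF, at 1022 FPKM, followed by SAG at 903, COR at 549, and GP at 384. *Pappa*, the metalloprotease of *Igfbp4* protein, was at 1.69 FPKM in GP and 0.71 in SAG, ahead of 0.51 in COR and 0.10 in PF, and its relative *Pappa2* ran from 0.31 FPKM in PF through 0.95 in SAG and 2.22 in COR to 3.79 in GP. Both had their highest value in GP and their lowest in PF, where both were under 1 FPKM and the library was the shallowest by the depth estimate. The range of *Pappa*, at 1.29 log2 units, was under 3-fold. *Stc1* and *Stc2*, secreted inhibitors of Pappa, differed in pattern: *Stc1* was highest in SAG, at 5.08 FPKM, and *Stc2* was lowest there, at 3.12 FPKM, and highest in COR, at 14.8. *Adam12*, a metalloprotease that cleaves binding proteins, was lowest in SAG, at 2.90 FPKM, and reached 3.89 in GP, 9.02 in COR, and 12.4 in PF. In PF vs SAG, 1 of 4 genes compared passed 3-fold, *Adam12*, higher in PF, beside 15.7% of all genes in either direction and 6.64% higher in PF.

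Below the receptors, the PI3K, AKT, and mTOR list was even: 0 of 21 genes spanned 3-fold among the libraries, compared with the 24.7% of all genes. The median log2 ratio of the list was 0.083 in PF against SAG and -0.22 in PF against COR. *Akt1*, the main kinase of the pathway, reached 231 FPKM in PF and 200.4 in COR, with 162 in GP and 122 in SAG. Of 8 receptor adaptor genes 7 reached 1 FPKM and 2 spanned 3-fold, a share near the 24.7% of all genes. *Irs2*, an insulin receptor substrate, was highest in SAG, at 34.5 FPKM, followed by 17.7 in GP, 8.53 in PF, and 7.18 in COR. *Grb14*, an inhibitory adaptor, was highest in GP, at 32.7 FPKM, and lowest in SAG, at 3.86. Between PF and SAG, *Irs2* was the 1 of 7 adaptor genes that passed 3-fold, lower in PF, and between PF and COR 0 of 7 did. Over all genes 15.7% and 11.7% passed in either direction, so the first count is near the share of all genes.

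Of 6 growth hormone axis genes, only *Socs3*, a cytokine-induced inhibitor of signaling, spanned 3-fold, beside 24.7% of all genes. *Socs3* was at 292 FPKM in SAG, 50.8 in GP, 46.2 in COR, and 24.3 in PF. *Ghr*, the growth hormone receptor, was at 32.8 FPKM in PF and between 20.7 and 23.7 in the others. *Igfals*, whose protein joins Igfbp3 in the serum complex, was highest in SAG, at 16.1 FPKM, followed by PF at 8.004, GP at 1.08, and COR at 0.769, and its highest value came in the library where *Igfbp3* was lowest. *Ins2*, which lies 11839 bases from *Igf2*, was at 5.04 FPKM in SAG and 4.03 in PF, ahead of 0.804 in COR and 0.616 in GP. Of the 7 IGF family genes outside the 10, 5 reached 1 FPKM, and only *Igfals* and *Ins2* spanned 3-fold, beside 24.7% of all genes. None of the 5 *Igf2* mRNA-binding proteins and regulators, of which 4 reached 1 FPKM, and none of the 4 genes of mannose 6-phosphate sorting did so.

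Of 12 imprinted genes 5 spanned 3-fold, beside the 24.7% of all genes. In PF against COR, 3 of the 12 passed, all higher in PF, beside 6.81% of all genes, and in PF against SAG 1 did, beside 15.7% of all genes in either direction. *H19*, the noncoding RNA 72624 bases from *Igf2* that shares its enhancers and is expressed from the other allele, was lowest in COR, at 191 FPKM, and reached 192 in SAG, 259 in GP, and 517 in PF. The ratio of *Igf2* to *H19* was 3.51 in COR, 2.95 in GP, 2.37 in SAG, and 1.61 in PF, so the pair was closest to even in PF. *Cdkn1c*, an imprinted inhibitor of cell division, reached 3198 FPKM in PF and 1742 in GP, with 961 in SAG and 945 in COR, again highest in PF. *Mest* and *Dlk1*, both expressed from the paternal allele, were instead highest in GP, at 1835 and 145 FPKM, and their lowest values were 269 in SAG and 6.57 in COR. *Phlda2*, an imprinted growth repressor, ran from 1.66 FPKM in COR to 8.87 in PF.

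Markers of other cells moved between the same libraries, and their part in the differences above was not tested. In SAG the summed level of 12 chondrocyte markers was 7075 FPKM, ahead of 3954 in GP, 236 in PF, and 216 in COR, with all 12 above 1 FPKM in every library. The 12 choroid plexus markers summed to 5467 FPKM in SAG and to between 236 and 545 in the others, with *Ttr* alone at 5103 FPKM in SAG, and with 9 markers above 1 FPKM in SAG and PF and 5 in COR and GP. The 10 meningeal markers summed to 1761 FPKM in SAG, of which *Nnat* was 1545, to 347 in PF, 99.9 in COR, and 49.4 in GP, with *Slc22a6* at 0 throughout. Sums without *Ttr* or *Nnat*, chosen after seeing the data, gave other orders. SAG kept the highest choroid plexus sum without *Ttr*, but lost the highest meningeal sum without *Nnat*. Without *Ttr* the other 11 choroid plexus markers summed to 363 FPKM in SAG, 232.0 in GP, 94.3 in COR, and 79.5 in PF. Of these 11 markers, 7 were highest in SAG, 3 in GP, and 1 in COR. Without *Nnat* the other 9 meningeal markers summed to 309 FPKM in PF and 216 in SAG, ahead of 73.4 in COR and 31.5 in GP, the same order of libraries as for *Igfbp2*. The 8 mural markers, of pericytes and smooth muscle, summed to 867 FPKM in PF, 648 in GP, 356 in COR, and 82.2 in SAG, with 5 above 1 FPKM in SAG and 7 or 8 elsewhere. SAG also had the lowest *Igfbp3*, *Igfbp5*, and *Igfbp6* values. This was not particular to the mural list, since SAG had the lowest osteoblast, tendon and fibroblast, and leukocyte and osteoclast sums as well. Within the mural list, *Cspg4* was lowest in PF, at 8.81 FPKM, and *Rgs5* in COR, at 0.43 FPKM, while the other mural markers were lowest in SAG. The 10 osteoblast markers summed to 13287 FPKM in GP, 12067 in COR (where *Col1a1* is listed at 0), 7741 in PF, and 1508 in SAG. Without *Col1a1* the other 9 were each highest in COR, and summed to 12067 FPKM there, 8239 in GP, 2846 in PF, and 902 in SAG. The 5 tendon and fibroblast markers summed to 1697 FPKM in GP and to between 171 and 486 in the sutures.

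Markers of blood, vessel, nerve, and muscle cells were low or depended on few genes. The 8 endothelial markers summed to 51.3 FPKM in PF and to between 11.2 and 24.3 in the others, with *Pecam1*, *Tek*, and *Emcn* under 1 FPKM throughout, while *Esam* and *Egfl7* were at 29.5 and 16.1 FPKM in PF and *Kdr* at 14.9 in SAG. Of 10 leukocyte and osteoclast markers, *Ptprc*, *Itgam*, *Csf1r*, *Emr1*, *Ctss*, and *Mpo* were under 1 FPKM in every library, while *Ctsk*, the osteoclast protease gene, made up most of the sums of 654 FPKM in PF, 611 in GP, 512 in COR, and 254 in SAG. Lists of 4 erythroid, 5 neuron, and 4 skeletal muscle markers summed to at most 15.6, 10.3, and 6.14 FPKM.

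The genes whose centred log2(FPKM + 1) values over the 4 libraries lay nearest to each of the 6 wide-ranging genes were found among 8330 genes with a mean FPKM of 5 or more. For *Igfbp2* these were *Ptgdr* at a distance of 0.46, *2310015B20Rik* at 0.66, and *Prokr1* at 0.70. For *Igfbp3* they were *Snord96a*, a short RNA of uncertain estimate, at 0.76, *Myh11*, the smooth muscle myosin, at 0.92, and *Egfl8* at 1.09. *Igfbp4* was nearest to *G0s2*, *Pla2g15*, and *Atp6v0c-ps2*, between 0.14 and 0.17. *Igfbp5* was nearest to *Slc39a14*, *Kdelr3*, and *Cnn2*, between 0.047 and 0.12. *Igfbp6* was nearest to *Galr2*, *Gm14005*, and *Sncg*, between 0.30 and 0.37, and *Igfbp7* to *Meg3*, *C1s1*, and *Dkk2*, between 0.18 and 0.31. Several of these genes were under 1 FPKM in 1 library. *Ptgdr* and *2310015B20Rik* were at 0.030 and 0.17 FPKM in GP. *Snord96a*, *Myh11*, *Galr2*, and *Sncg* were at 0, 0.43, 0.68, and 0.78 FPKM in SAG. The log2(FPKM + 1) scale understates differences at such levels. A likeness over 4 libraries is a description and carries no test.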

How the data were processed

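Per the labels and the paper's methods, cDNA was made with a low-input kit, reads were mapped to mm9 with STAR 2.5.1b, and the authors estimated FPKM per gene symbol with Cuffdiff of Cufflinks 2.2.1. The deposited files hold these FPKM values, with 1 library per tissue. The library scaling used in Cuffdiff and the fragment totals are not given in the sources used here, so depth was estimated as the FPKM worth of 1 fragment in a 1 kb transcript, from the spacing of low values (0.0243 to 0.0553).

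Each pair of libraries was compared by log2(FPKM + 1), a scale that understates differences at low levels. Genes under 1 FPKM in both were left out, and 3-fold ratios were counted. No p-value is given. Positions are those of GENCODE M1 (mm9). GC content is that of the longest coding transcript and was available for 80.8% of symbols. Named were the IGF genes, up to 4 genes of each list past 3-fold, genes a result turned on, the 3 most alike genes, sorting antigens, and overlapping genes. *Htra1*, *Pappa*, *Akt1*, *Ghr*, and *Insr* were chosen by name after seeing values. The genes and lists were chosen with earlier results of these data known.

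Alternatives were a pseudocount of 0.1 or none, 3 other filters, median-ratio scaling, equal totals, quantile normalization, values relative to *Gapdh*, a GC correction (lowess, span 0.3), and a 2-fold threshold. Python 3.11.15, numpy 2.4.6, pandas 2.3.3, statsmodels 0.14.6, and matplotlib 3.10.9 were used. Only the ratios and the 3-fold count were tested on simulated data, with changes larger than 3-fold.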

Additional observations from a re-analysis of the deposited data

How the results depend on the processing

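No paired analysis was possible because there is only 1 library per tissue. Direction held for every ratio past 3-fold in all 7 settings that could move it. For PF vs SAG, 5 genes passed as reported and 3 passed with equal totals and with quantile normalization. The shares of all genes were 15.7%, 16.2%, and 15.7%. For GP vs PF, 2 passed as reported and 1 with equal totals, with quantile normalization, and with the GC correction. Over all genes 12.0% passed as reported, and 11.6%, 11.8%, and 11.1% in those settings. For PF vs COR, 3 passed as reported, 2 with quantile normalization or the GC correction, and 4 relative to *Gapdh*, where *Igfbp7* was at 1.78. The shares of all genes were 11.7% as reported, 11.2% with quantile normalization, 11.0% with the GC correction, and 13.9% relative to *Gapdh*. Relative to *Gapdh*, *Igf1* for PF vs SAG was at 1.75, *Igfbp2* for GP vs COR at -1.70, and *Igfbp5* for GP vs SAG at 1.63, each past 3-fold. With a 2-fold threshold, 5 passed for PF vs COR, and 4 for GP vs COR in place of 2. At that threshold 29.4% and 9.95% of all genes passed in these comparisons. The 3 other filters did not alter any count, since every IGF gene was above 1 FPKM in every library and those past 3-fold were above 5. Equal totals moved the median ratio of all genes to -0.26 for PF vs SAG, and division by *Gapdh* moved it to 0.51, so part of each move is common to all genes. Small ratios turned sign in places: *Igf2* for GP vs COR was -0.030 relative to *Gapdh*, *Igfbp6* and *Igfbp7* for GP vs PF were -0.079 and -0.18 there, and *Igfbp5* for PF vs COR was -0.056 with equal totals. Beyond what each scaling does by construction, the cause was not tested. By the depth estimate PF was the shallowest library, which limits *Igf1r* and *Igf2r* most.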
